A study of Mus musculus with 54 samples.

Results

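The cytosolic ribosomal protein genes encode the proteins that, with ribosomal RNA, make up the small and the large subunit of the ribosome. They were taken by symbol: Rps or Rpl, a number and at most 1 letter (a, x, y or l) with an optional further number, together with Rplp0, Rplp1, Rplp2 and Rpsa, and without any name that holds -ps. This gave 88 genes of the 43280 symbols in the tables, 37 of the small and 51 of the large subunit. Rpl36al, Rps27rt and Rpl37rt do not match the pattern and are treated below as other genes.

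The small subunit reads the messenger RNA and the large subunit joins the amino acids. Messages for most ribosomal proteins start with a C followed by an unbroken run of pyrimidines, the 5′ terminal oligopyrimidine (TOP) motif, through which mTOR signalling and the RNA-binding protein LARP1 control their translation. The mammalian genome also holds many processed pseudogenes of these genes, copies of the spliced message that reads can match as well as the gene itself.

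The samples are 54 single cells of mouse lung, whose label is interstitial macrophage, the type that lives in the lung tissue outside the airspaces. Full-length cDNA of each cell was amplified by SMART-seq2 with small changes and sequenced as paired ends. No strain, age, treatment, animal or batch is given in the labels, so the cells form 1 sample of 1 group, cells are not replicates, and every value below is a description with no test. Cells are numbered 1 to 54.

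The cells were parted by the mean of log2(TPM + 1), called the level, of Prg4, Alox15 and Fn1, genes known from macrophages of the body cavities: 23 cells had a value of 7 or more and 31 a value under 7. The cells nearest to the border were cells 29 and 1 at 5.34 and 4.86 below it, and cells 31 and 20 at 7.31 and 7.76 above it. The other 7 genes of a serous cavity macrophage list were each higher by at least 1 in mean level in the upper group, where 28% of all genes above 0 in at least 10 cells were. Of these 7, Gata6, Lrg1, Selp and Padi4 were at 10 TPM or more in 0 cells of the lower group. Such genes can pass that filter through the upper group alone, so the 28% is no measure for them and the count only describes the groups. The complement gene C1qb was at 10 TPM or more in 52 of the 54 cells, and Siglecf, a defining gene of alveolar macrophages, in 0. Cell 31 stood apart, since its lowest value above 0 was 9.5 TPM and 6 of 10 alveolar macrophage markers were at 10 TPM or more. Cells 36 and 40 had 3 and 2 of 10 macrophage markers at 10 TPM or more, the fewest of all cells, and held T or NK cell, monocyte or alveolar markers. Cell 48 also held 2 monocyte markers, beside 7 macrophage markers. The depth behind TPM values is unknown, and the number of other genes at 10 TPM or more, 497 to 3576 per cell, is given as the nearest measure.

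The sequences below show what many of these genes share where their messages begin, a feature the choice of genes did not use. Each is the 30 bases from 10 before to 20 after the start listed by RefSeq for build GRCm38.p6, read 5′ to 3′ on the gene's strand, with the run of at least 7 pyrimidines that begins with C in capitals. The first 6 hold a run, and the last 2 belong to highly expressed genes whose windows hold none.
Rps6, chr4:86857348-86857377, minus strand: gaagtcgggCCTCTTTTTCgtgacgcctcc
Rps18, chr17:33955646-33955675, minus strand: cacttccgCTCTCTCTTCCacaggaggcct
Rps10, chr17:27635225-27635254, minus strand: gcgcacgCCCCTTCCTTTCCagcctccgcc
Rpl15, chr14:18270967-18270996, minus strand: agaaagCCTTCTTCCTTTCCTCTggcggca
Rpl27a, chr7:109519185-109519214, plus strand: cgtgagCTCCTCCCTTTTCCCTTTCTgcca
Rpl35, chr2:39005112-39005141, minus strand: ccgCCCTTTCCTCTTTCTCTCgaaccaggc
Rplp0, chr5:115559457-115559486, plus strand: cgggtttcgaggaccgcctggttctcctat
Rps4x, chrX:102189372-102189401, minus strand: gctgggcggagcaacccaggctccagcgcg

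Of the 88 genes, 63 had a promoter entry, and in 36 of them, or 57.1%, such a run began within 20 bases of a listed start, against 24.03% of the 27025 genes in the RefSeq table. The letters ACTTCCGG, searched on both strands from 250 bases before to 50 after the start, were found in 19.05% of the members and 4.31% of all genes. AAGATGGC was found in 9.52% and 3.19%, and TATAAA in 11.1% and 15.7%. A match describes the letters in the window and is not a binding site or a transcript start measured in these cells.

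The ribosomal protein genes took a median of 2.92% of a cell's TPM total, from 1.04% in cell 11 to 6.28% in cell 36. In the cells at 7 or more the lowest, median and highest shares were 1.54%, 3.04% and 5.21%, and in the cells under 7 they were 1.04%, 2.49% and 6.28%. The groups overlapped over nearly their whole range. In the upper group 19 of 23 cells lay above the median of the lower group, but 0 lay above its highest cell. The difference of the medians, 0.545 percentage points, was below the standard deviation among cells, 0.907 points in the upper and 1.26 points in the lower group. Without cell 31 the upper median was 3.15%, and without cells 36 and 40 the highest share in the lower group was 5.95%. The share is taken of a fixed total, and the lysozyme gene Lyz2 alone filled a median of 14.8% of that total in the upper and 2.63% in the lower group. With Lyz2 taken out of the total, the difference of the medians was 1.10 points, and without the 100 other genes of highest mean TPM it was 1.09 points. These are points of smaller totals, in which the median share over all cells was 3.09% and 5.06%, so they are not on the scale of the 0.545 points. With the near-copies described below added to the members the difference was 0.929 points of the full total.

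The 51 large-subunit genes together had a higher median share than the 37 small-subunit genes, 1.74% against 1.08%. The ratio of the 2 sums had a median of 1.39 and was above 1 in 49 of 54 cells. The sums are not divided by the number of genes, of which 41 and 31 were widely present as defined below. The ratio therefore does not measure a difference per gene. Across cells the subunit shares moved together, with a Spearman rho of 0.630 over the 23 cells and 0.772 over the 31, values that share each cell's library and total. Within the sum a few genes dominated: the 10 highest by mean level took a median of 47.2% of it per cell.

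**Figure D1:**
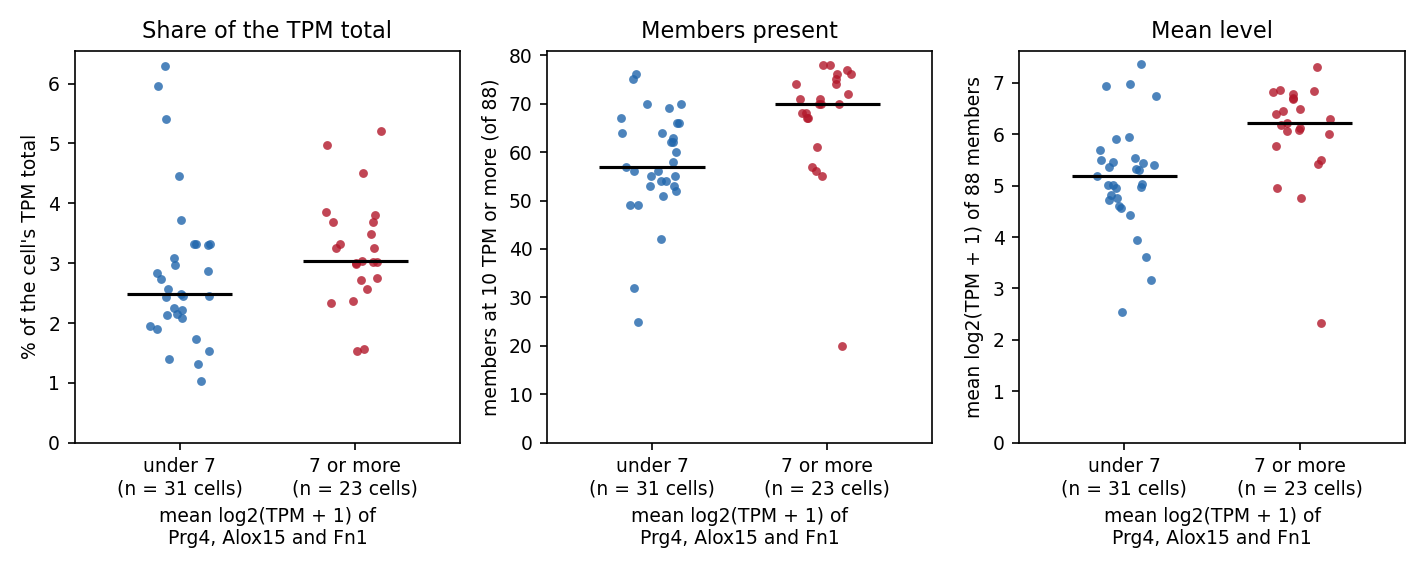
Each point is 1 cell, and the bar is the group's median; the panels give the share of the TPM total in percent, the number of members at 10 TPM or more out of 88, and the mean log2(TPM + 1) over the members. The groups overlap in every panel, with medians of 2.49 and 3.04%, 57 and 70 members, and a mean level of 5.20 and 6.22 in the cells under 7 and at 7 or more, and cell 31 is the lowest point of the upper group in the last 2 panels.

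Most of these genes were found in most cells. Of the 88 genes, 85 were above 0 in at least 1 cell, and 72 of those, or 84.7%, were at 10 TPM or more in 27 or more of the 54 cells, here called widely present. Over all 14890 genes above 0 anywhere, 4.76% met that condition. Yet even this set had gaps in single cells: 17 members reached 10 TPM in at least 50 cells, and Rps29, a zinc-binding protein of the small subunit, was the 1 member that did so in every cell, among 11 genes of the tables in all. A cell held a median of 64 members at 10 TPM or more, from 20 in cell 31 and 25 in cell 24 to 78. Since the ribosome needs nearly all of its proteins, a value of 0 is reported only as the gene being listed at 0.

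Among the small-subunit genes, 31 of 37 were widely present. Rps9, Rps4x, Rps2, Rps6 and Rps19 were the highest by mean level. Rps9 ranged from 0 to 3285 TPM with a median of 1031 TPM, and was at 10 TPM or more in 50 cells. Rps19, the gene most often mutated in human Diamond-Blackfan anaemia, varied least among these 5, with a standard deviation of 1.56 in level; it ran from 7.41 to 2195 TPM around a median of 509 TPM and was below 10 TPM in a single cell. Rps2 and Rps4x were spread more widely: each was at 10 TPM or more in 46 cells, with medians of 1181 and 1407 TPM and highest values of 4609 and 7533 TPM. Rps6, the substrate of S6 kinase, had a median of 738 TPM and reached 10 TPM in 49 cells. Rpsa, the laminin-receptor homologue of the small subunit, had a median of 143 TPM and was at 10 TPM or more in 36 cells (66.7%, exact Clopper-Pearson 95% interval 52.5 to 78.9%, which here and below covers counting error only).

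Among the large-subunit genes, 41 of 51 were widely present, and Rplp0 was the highest of all members. Rplp0, the base of the P stalk that binds the elongation factors, ran from 2.55 to 8160 TPM with a median of 2489 TPM and was at 10 TPM or more in 53 cells. Its partners in the stalk were far lower: Rplp1 had a median of 269 TPM and was at 10 TPM in 53 cells, and Rplp2 had a median of 43.04 TPM and was at 10 TPM in 43 cells. The sum of Rplp1 and Rplp2 had a median of 328 TPM. In the assembled stalk each P0 protein carries several P1 and P2 proteins. After Rplp0 came Rpl4, Rpl13, Rpl6 and Rpl13a, with medians of 1668, 989, 989 and 672 TPM and at 10 TPM or more in 49, 51, 51 and 52 cells.

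At the other end, Rpl10l, Rpl39l and Rps12l2 were listed at 0 in every cell, and Rps3a2 and Rps3a3, both annotated as pseudogenes, stayed below 10 TPM, at most 7.30 and 0.81 TPM. For each of these, 0 of 54 cells allows a share of up to 6.60% by the same interval. Rpl10l and Rpl39l are known from the testis, and Rpl3l from skeletal and heart muscle; Rpl3l was above 0 in 1 cell, cell 36, at 71.0 TPM. The pseudogene Rps4l reached 10 TPM in 3 cells. The last of the 10 lowest are core ribosomal proteins: Rpl12, above 0 in 8 cells and at 10 TPM in 1, with a highest value of 37.3 TPM; Rps12, listed at 0 in all but 19 cells; and Rpl37, at 10 TPM in 25 cells with a median of 7.20 TPM. The copies of these 3 genes are described below.

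**Figure D2:**
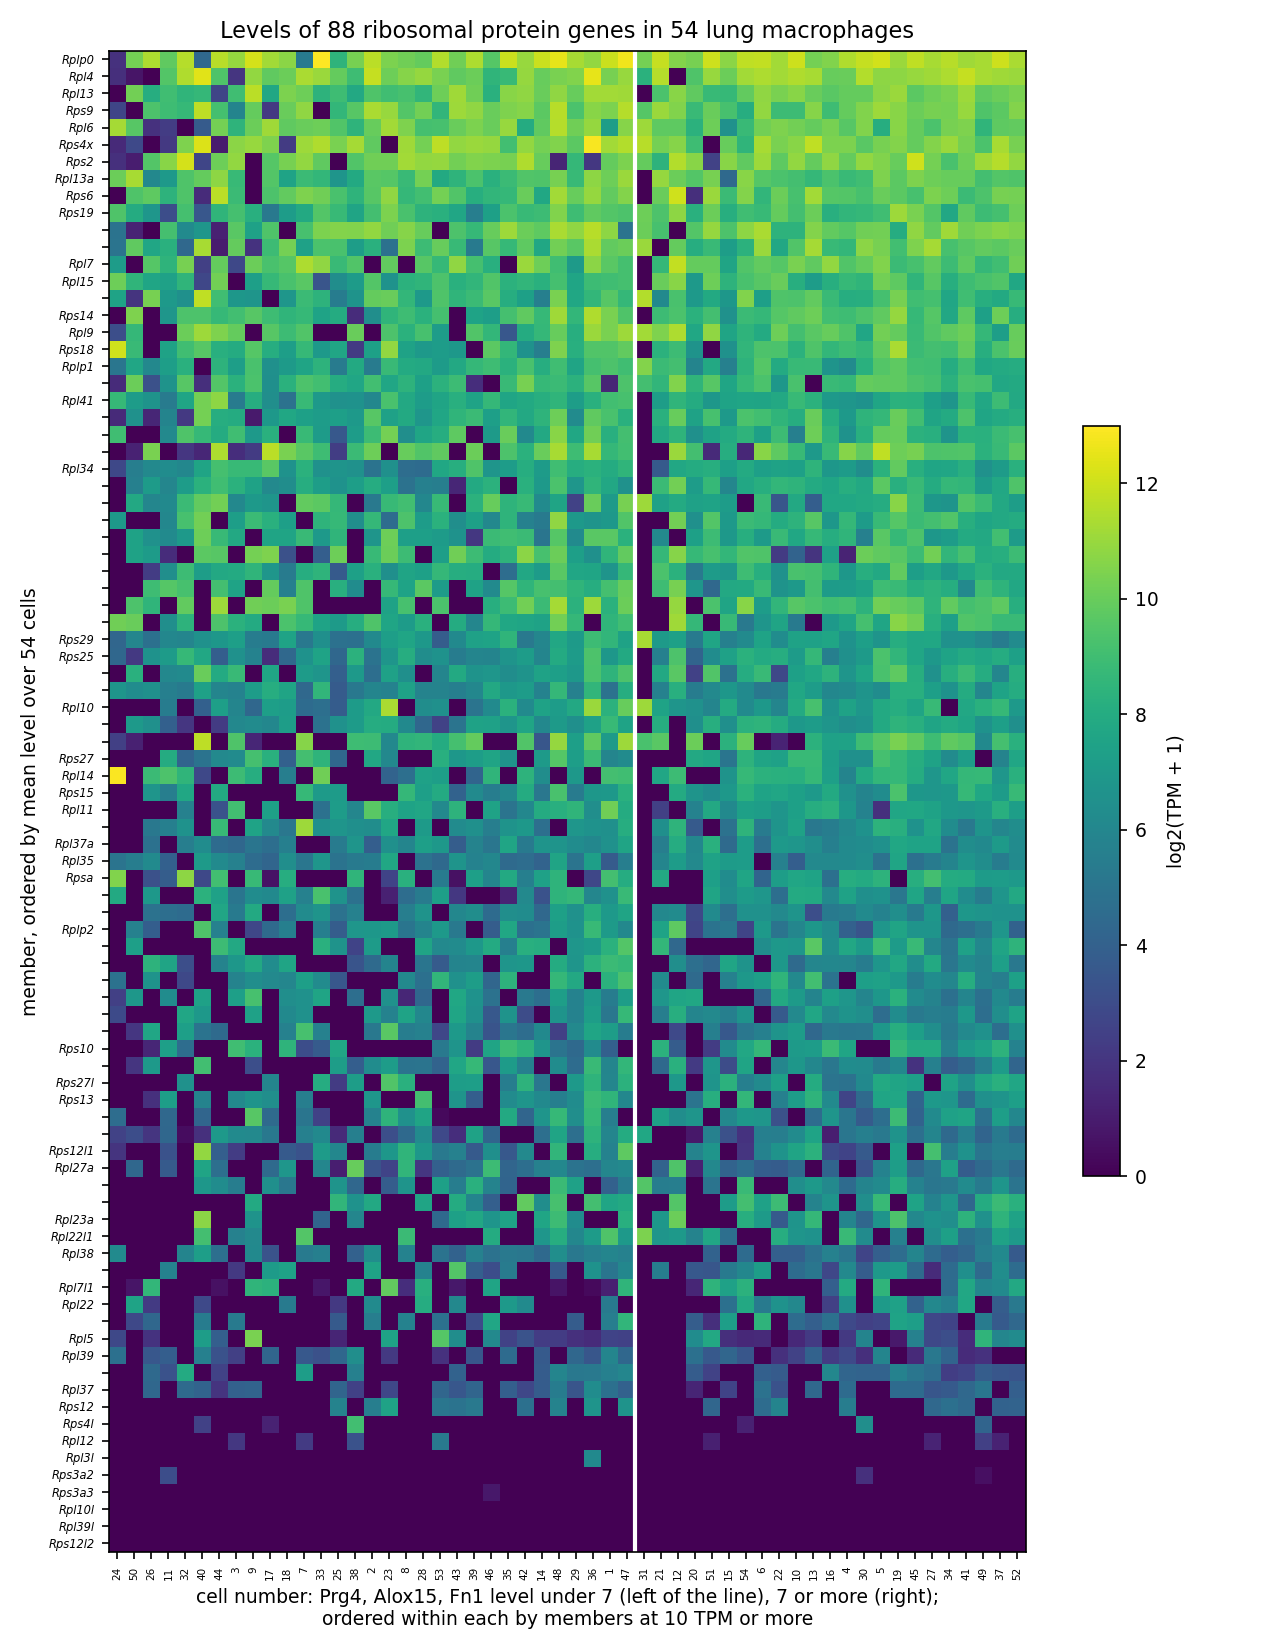
Each row is 1 of the 88 members, ordered by mean level, and each column 1 cell, with cells under 7 left of the white line and cells at 7 or more right of it; the colour is log2(TPM + 1), with 0 darkest, and members named in the text are labelled. Dark squares are scattered through the middle rows in nearly all cells and are densest in cells 24 and 31. Rplp0, Rps19 and Rps29 are among the members with none at 0, while Rpl10l, Rpl39l and Rps12l2 are dark throughout.

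More members were present in cells where more other genes were detected, while their share of the TPM total showed no such relation. Within the 23 cells at 7 or more, members present had a rho of 0.788 with the other genes at 10 TPM or more, and within the 31 cells under 7 a rho of 0.690; without the 2 cells farthest from the median of genes detected these were 0.733 and 0.640. The mean level of the members had a rho of 0.527 and 0.584. For the share the values were -0.19 and -0.09. Members also made up a smaller part of the genes present where more were present, with a rho of -0.74 and -0.81, a measure that holds the gene number in its own denominator. All of these are across cells that share a library with their gene number, and the depth behind that number is unknown.

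More genes were at 10 TPM or more in the upper group, members and others alike. Its cells had a median of 70 members at 10 TPM or more (20 to 78; 55 to 78 without cell 31), against 57 (25 to 76) in the lower group. Its median number of other genes at 10 TPM or more was 1803, against 1352. The mean level of the members was 6.22 and 5.20, and 20 of the 23 upper cells lay above the lower group's median. How far the gene number accounts for the members' difference was not tested.

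**Figure D3:**
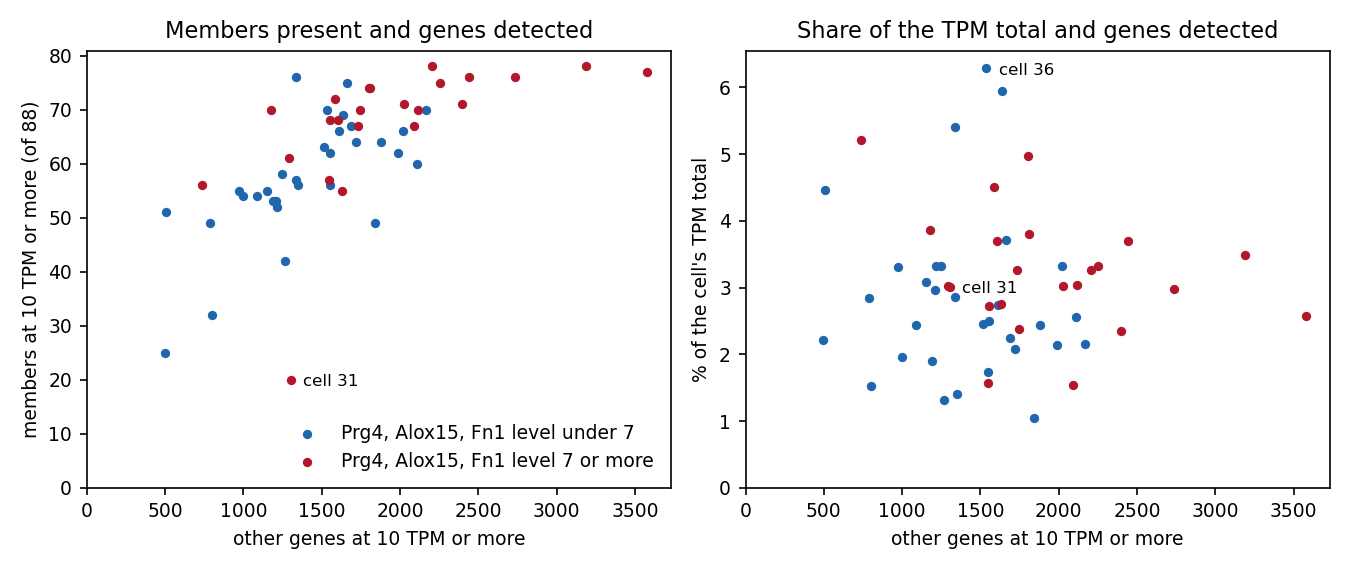
Each point is 1 cell, in red at 7 or more and in blue under 7; the x axis is the number of other genes at 10 TPM or more, and the y axes are the members at 10 TPM or more out of 88 and the share of the TPM total in percent. Members present climb with genes detected in both groups, with rho of 0.788 and 0.690 and cell 31 far below the rest, while the share shows no such climb, with rho of -0.19 and -0.09.

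Members moved together only weakly from cell to cell. Over the 2556 pairs of the 72 widely present members, the median rho was 0.184 in the cells at 7 or more and 0.168 in the cells under 7. Pairs of the 637 other widely present genes had medians of 0.019 and 0.034, and pairs of a member with such a gene 0.012 and 0.035. Pairs within the small subunit, 0.202 and 0.176, and within the large subunit, 0.164 and 0.171, were close to each other. Members were ranked by their median rho with the others, taken as the mean of the values in both groups. Rps14, at 0.318 and 0.262, Rpl34, Rpl37a and Rps25 were among the highest. The lowest by that mean were Rps2, at 0.068 and 0.004, then Rpl22l1, at -0.12 and 0.23, Rps10, Rpl35 and Rpsa. These values rest on 23 and 31 cells, share library and depth, and are low in size.

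Between the groups of cells, members tended to be higher at 7 or more, and so did other genes that are widely present. Of the members, 80 were above 0 in at least 10 cells. Their mean level was higher by at least 1 in the upper group for 37 of the 80, or 46.25%, where 28% of the 5291 genes tested were, and lower by at least 1 for 0 of the 80, where 7.56% were. The members' median difference was 0.97 and that of all 5291 genes 0.32. Among widely present genes 47.2% of the members and 52.4% of the 637 others were higher by at least 1, with median differences of 0.99 and 1.12. By subunit, 15 of 33 small-subunit and 22 of 47 large-subunit members were higher by at least 1, with medians of 0.94 and 0.99.

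Single members ranged widely around that median. Rpl23a, a large-subunit protein at the exit of the peptide tunnel, had the largest difference, 2.57; it was at 10 TPM or more in 18 of 23 upper cells (0, 97.4 and 1081 TPM at lowest, median and highest) and 13 of 31 lower cells (0, 0 and 1710 TPM). Rpl9 ran from 156 through 826 to 2721 TPM in the upper group, where it was at 10 TPM in all 23 cells, and from 0 through 406 to 2191 TPM in the lower group, where it was so in 23 of 31, a difference in mean level of 2.48. In both genes the ranges of the groups overlapped, and more cells of the lower group were below 10 TPM. Rpl22l1, Rpl14 and Rps15 followed with differences of 2.39, 2.03 and 2.01. Rpl14 had its highest value, 7850 TPM, in cell 24 of the lower group.

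The tested members with the lowest differences were short, but other short members went the other way. Rpl38, Rpl37, Rpl39 and Rpl41, of 210, 291, 153 and 75 coding bases, had differences of -0.63, -0.35, -0.30 and -0.29, each within 1 of no difference. Rpl38 had medians of 14.5 TPM in the upper and 34.6 TPM in the lower group. Rpl37a and Rps27l, of 276 and 252 coding bases, had differences of 1.33 and 1.87. With the near-copies described below added, Rpl37 and Rpl39 had differences of 0.53 and 0.05. Rpl41, which encodes the smallest ribosomal protein, was at 10 TPM or more in 53 of 54 cells, with medians of 197 and 200 TPM. The count of 37 depended on the scale: it was 14 with a pseudocount of 10, where 13.3% of all genes passed, 57 when the groups were parted at 8, which moves cells 20 and 31 to the lower group, with 30.2% of all genes, and 22 after the median difference of all genes, 0.32, was taken off, with 20.8% of all genes. Without cell 31 it was 50 of 80, with 29.4% of all genes.

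**Figure D4:**
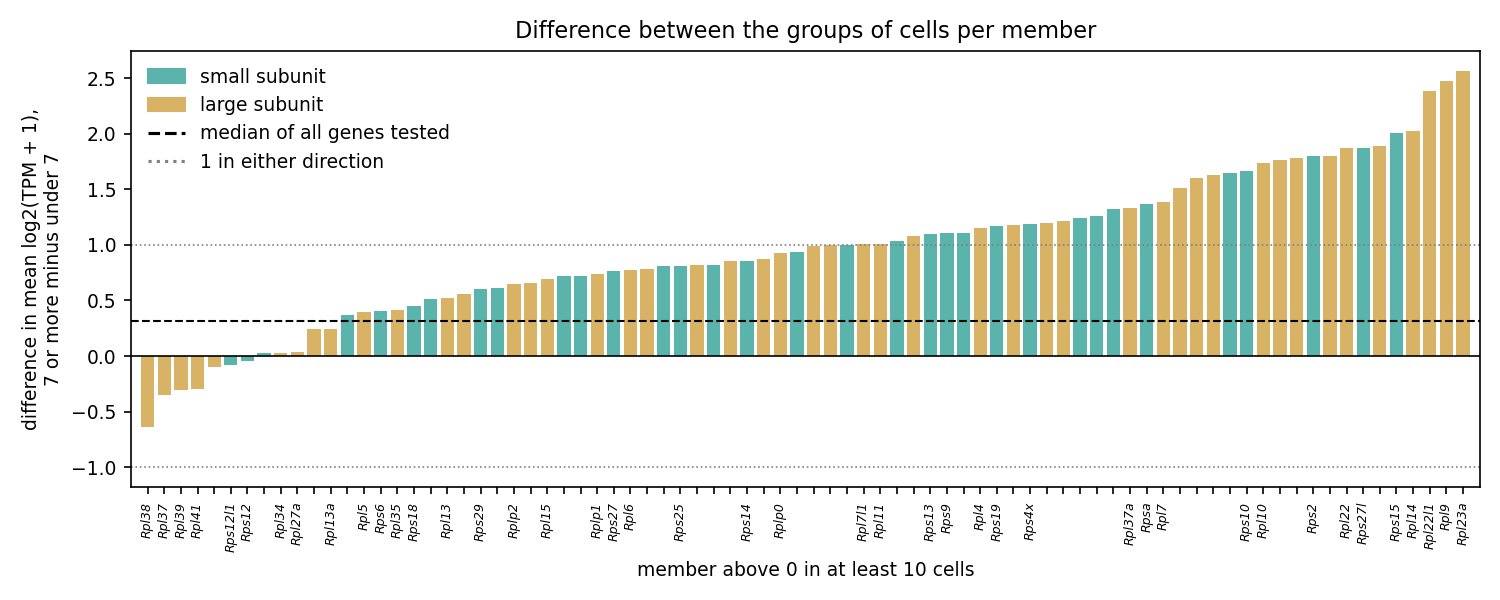
Each bar is 1 of the 80 members above 0 in at least 10 cells, and its height is the difference in mean log2(TPM + 1), cells at 7 or more minus cells under 7, with teal for the small and tan for the large subunit and labels on members named in the text. Most bars stand above the dashed median of all genes tested, 0.32, 37 reach the dotted line at 1, and Rpl38 at -0.63 is the lowest.

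Members with longer coding sequences had higher mean TPM, although TPM is already a value per length. Over the 81 members with an annotated coding sequence, coding length had a rho of 0.576 with mean TPM and of 0.419 with the mean level. Over the 71 of these that were widely present, coding length and mean TPM had a rho of 0.694. In single cells the same rho was above 0 in 54 of 54, with a median of 0.427. The 23 shortest, of 75 to 405 bases, held 11.5% of the members' sum, and the 23 longest, of 582 to 1257 bases, held 66.0%. In other gene classes the rho was lower, at 0.016 over 538 other widely present genes, -0.35 over 4477 other genes tested, and 0.189 over 41 mitochondrial ribosomal protein genes. Coding length and the number of cells at 10 TPM or more had a rho of 0.061 over 81 members. The genes are not independent replicates, and how the authors computed effective lengths is not given in the sources used here.

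For some members, rows of near-copies held a large part of the TPM summed over the member and its copies. A near-copy is here a row outside the 88 genes, named Gm, BC or Rp, whose GENCODE vM21 transcript matches a member's coding sequence at 90% or more over 90% or more of its length. The tables held 644 such rows for 76 members, of which 169 reached 10 TPM in some cell. Their sum had a median of 0.673% of the TPM total and came to a median of 25.5% of the members' own sum, from 12.4% to 68.7% in cell 31. RSEM divides a read that matches several transcripts among them, so values of a member and its copies are uncertain one by one. In 18 members the mean TPM became at least 2 times as high with the copies added.

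A pair of stretches shows how little sets such rows apart. The coding sequence of Rpl35 and its match in Gm2000, a row annotated as protein-coding, differ at 1 of 369 bases. The 60 bases from coding base 87 to 146 of Rpl35 hold that base, in capitals (GENCODE vM21, GRCm38).
Rpl35: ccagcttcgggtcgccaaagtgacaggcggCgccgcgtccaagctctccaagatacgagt
Gm2000: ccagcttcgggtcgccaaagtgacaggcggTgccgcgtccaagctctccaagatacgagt

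Rpl35 had a mean of 65.8 TPM and Gm2000 a mean of 290.03 TPM, and they were at 10 TPM or more in nearly the same number of cells, 50 and 52. The gene that looked nearly absent, Rpl12, has an identical coding sequence in Gm10275: the gene's row had a mean of 1.14 TPM and 1 cell at 10 TPM, the copy 46.8 TPM and 19 cells, and all copies together with the gene 48.4 TPM and 21 cells. Rpl5, which with 5S RNA and Rpl11 restrains MDM2, was at 10 TPM in 14 cells with a mean of 66.3 TPM, and with its copies, chiefly Gm15500, in 48 cells with a mean of 609 TPM. Rpl10 went from a mean of 275 to 1727 TPM by way of Rpl10-ps3, and from place 34 to place 3 among the members. Rps27 went from 173 to 736 TPM, with the protein-coding Rps27rt at 562 TPM, and its difference between the groups went from 0.76 to -0.0037. Rpl37 went from 25 to 38 cells at 10 TPM, and its difference between the groups from -0.35 to 0.53; that of Rpl39 went from -0.30 to 0.05.

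The relation to length was as high with the copies counted. With them added, the rho of coding length and mean TPM was 0.703 over 75 genes, and over the 38 widely present members whose copies added less than 5% it was 0.802. The number of widely present members was 76 in place of 72, and 43 of 81 in place of 37 of 80 were higher by at least 1 in the upper group, where 28.1% of all genes were.

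**Figure D5:**
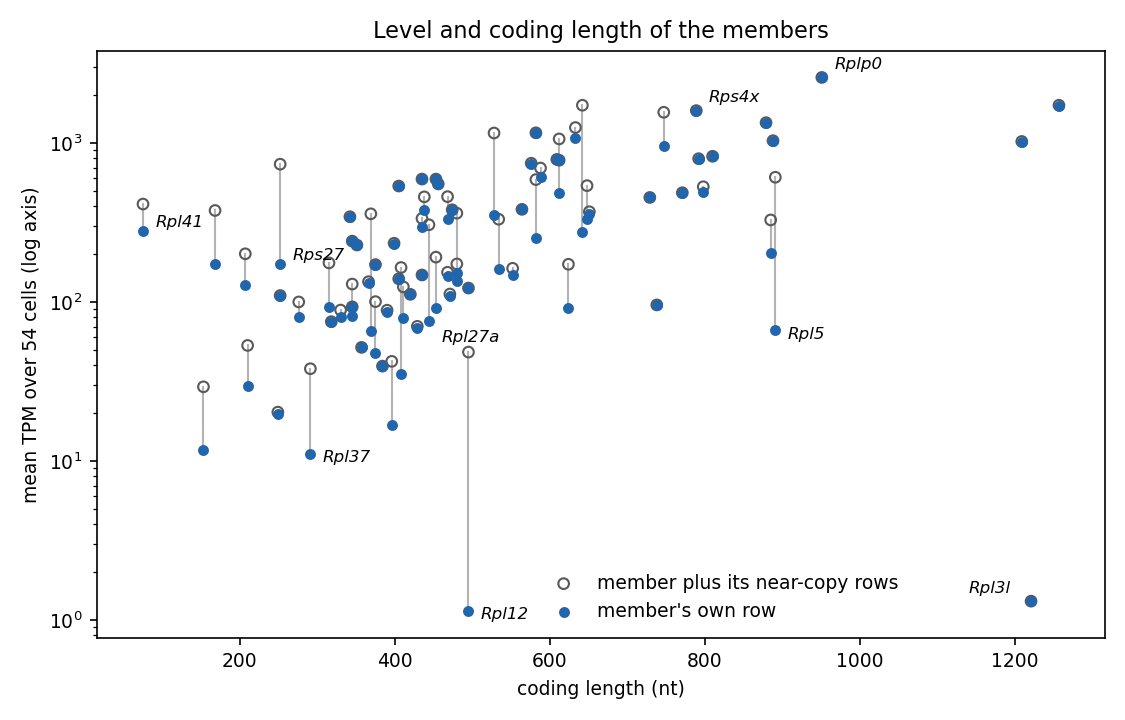
Each filled point is 1 protein-coding member above 0, with its coding length in nucleotides on the x axis and its mean TPM over 54 cells on a log y axis; the open circle above it adds the TPM of its near-copies, and the line joins both. Both kinds of point climb with length, with rho of 0.694 and 0.703 over the widely present members, and the longest lines belong to Rpl12, Rpl5 and Rpl10.

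Some ribosomal proteins have a second gene in the mouse, and the members of these pairs were used to different degrees. Rps27 and Rps27l, a gene induced by p53, align over 252 bases at 76.2% identity, and Rpl22 and Rpl22l1 over 299 bases at 74.6%, so they differ at far more bases than the copies above. The stretches below show this over 60 bases of each, with differing bases in capitals, from coding base 1 in the first pair and from coding base 68 of Rpl22 and 53 of Rpl22l1 in the second.
Rps27: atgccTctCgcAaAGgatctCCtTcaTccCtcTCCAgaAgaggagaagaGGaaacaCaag
Rps27l: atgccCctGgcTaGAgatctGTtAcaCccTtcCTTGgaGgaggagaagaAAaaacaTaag
Rpl22: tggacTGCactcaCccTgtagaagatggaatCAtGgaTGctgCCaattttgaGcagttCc
Rpl22l1: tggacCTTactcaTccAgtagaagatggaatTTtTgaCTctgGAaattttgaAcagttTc

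Rps27 and Rps27l were both at 10 TPM or more in 28 cells, Rps27 alone in 15, Rps27l alone in 5 and neither in 6, before the copies of Rps27 are counted. Rps27l ran from 0 through 104 to 321 TPM in the upper and from 0 through 3.82 to 697 TPM in the lower group, a difference of 1.87. Rpl22 and Rpl22l1 were each present in fewer cells, 22 and 30. Both were present in 11 cells, Rpl22 alone in 11, Rpl22l1 alone in 19 and neither in 13. Genes present in fewer cells share fewer cells, so the overlap does not show that the genes avoid each other. Their levels had a rho of -0.24 over the 23 and -0.28 over the 31 cells, weak values on many cells listed at 0. Both genes were higher in the upper group, with differences of 1.87 and 2.39. Rpl22 is known to repress Rpl22l1 in mouse tissues, which was not tested here. Rpl7l1 was at 10 TPM in 19 cells, each of which also held Rpl7. Rps4x was above Rps4l in 51 cells, and Rps4l above Rps4x in 0.

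Rps12 and Rps12l1 cannot be told apart by their coding bases. Rps12l1 is annotated as a pseudogene and matches the Rps12 coding sequence at 396 of 396 bases. Its row was at 10 TPM or more in 33 cells with a mean of 120 TPM, against 19 cells and 16.9 TPM for Rps12. It was the higher of both in 36 cells, and the lower in 4. Rps12-ps3, a further copy with an identical coding sequence, was at 10 TPM or more in 15 cells with a mean of 24.5 TPM. Bases outside the coding sequence were not compared.

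Genes that work with the ribosome were also higher in the upper group in part. Of 24 elongation and initiation factors tested, 15 were higher by at least 1 and 0 lower, with a median difference of 1.33, against 28% and 7.56% of all genes. Eif3k and Eif4a2 had the largest differences, 2.90 and 2.88, and Eef1d and Eif4b the smallest, -0.83 and 0.0046. Of 19 tested genes of a list of other TOP messages, 9 were higher and 0 lower (median 0.79). Npm1, a nucleolar chaperone, led at 2.32, with the poly(A)-binding protein gene Pabpc1 at 2.28. At the other end were Nap1l1 at -0.73 and Hnrnpa1 at -0.26. The list was taken as given: of its 15 genes with a promoter entry, 7, or 46.7%, held the pyrimidine run. The mean level of this list was the one most like that of the members across cells, with a rho of 0.738 and 0.598.

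Of 41 mitochondrial ribosomal protein genes tested, 15 were higher and 1 lower (median 0.46), with Mrpl42 at 3.52 and Mrps17 at 3.05, and Mrpl27 at -1.24 and Mrpl52 at -0.77; their share of the TPM total had a median of 0.368%, about the same in both groups at 0.373% and 0.360%. Of 15 ribosome assembly genes, 4 were higher and 0 lower (median 0.80), a part near the 28% of all genes tested that were higher. The assembly genes ran from Rrn3 at 1.78 and Npm1 to Nop58 at -0.19 and Polr1b at -0.54. Of 16 partners and regulators, 7 were higher and 0 lower (median 0.61), with Serp1 at 3.54 and Pdcd4, an inhibitor of translation initiation, at 2.92, and Nars at -0.77 and Rps6ka1 at -0.56. Over all genes tested, 28% were higher and 7.56% lower by at least 1. The lists were not matched to genes of like presence, and of the 637 other widely present genes 52.4% were higher. Ribosomal proteins with other symbols were widely present too: Fau, made as a ubiquitin-like fusion, in 50 cells with a median of 139 TPM, and Gnb2l1, the older symbol of Rack1, in 37 cells with 158 TPM.

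Among the widely present genes outside the 88 whose level was most like the mean level of the members, by the lower of the rho values in the 23 and the 31 cells, were Rps13-ps2 at 0.61, Tmem258 at 0.50, Rpl10-ps3 at 0.49, Gm10076 at 0.48, Gm17132 at 0.47, Ldha at 0.45, Rpl36al at 0.44, and Ifi27l2a and Gm10221 at 0.43 each. Rps13-ps2, Rpl10-ps3 and Gm10076 are near-copies of Rps13, Rpl10 and Rpl41, so reads can be shared between them and members.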

How the data were processed

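The values are TPM (transcript abundances scaled to a fixed total), which the authors deposited as 1 table per cell, computed with RSEM per the submitters' processing notes. The RSEM version, aligner, genome build and annotation are not given in the sources used here. Gene symbols are those of the tables; GENCODE vM21 and RefSeq were matched by symbol alone, for lengths and sequences. TPM keeps no depth, so depth is unknown.

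Levels are log2(TPM + 1), which understates differences of low genes. A gene was present at 10 TPM or more and entered group differences if above 0 in at least 10 of 54 cells. The members and lists were chosen with earlier results of these data known. Named members were those with the 10 highest and 10 lowest levels, the 5 largest differences each way, the 5 highest and 5 lowest median correlations, the P stalk, Rpsa and paralogs. Of related lists the text names the 2 largest and 2 smallest differences, and of other genes the 10 most like the member level. A few genes picked by these rules are not reported here. A few further members were named after their values were seen. Near-copies (BLAST 2.17.0, blastn) and runs without single cells were added after seeing the data. No test was made, because cells of unknown animals are not replicates. Python 3.11.15, pandas 2.3.3 and SciPy 1.17.1 were used; the steps were checked on simulated data.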

Additional observations from a re-analysis of the deposited data

How the results depend on the processing

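The alternatives changed the group cut, the pseudocount, the filter, the scaling, the summary and the cells used. The median share of 2.92% became 5.06% of a total without the 100 other genes of highest mean TPM. The relation of the share to genes detected, -0.19 at 7 or more, was 0.0039 over all 54 cells pooled. Under the other alternatives it lay between -0.33 and -0.16 at 7 or more. The relation of the members present at 7 or more was 0.555 as Pearson's r in place of a rho of 0.788. The count of 37 members higher by at least 1 became 57 with groups parted at 8 (30.2% of all genes passed), 14 with a pseudocount of 10 (13.3%), 22 less the median difference of all genes (20.8%) and 22 with medians in place of means (16.3%). With medians, 2 members were lower by at least 1, as were 4.04% of all genes. The difference in share, 0.545 points, was 1.10 points without Lyz2 in the total and 1.09 points without the 100 highest other genes, and at least 0.543 points under the alternatives run. The causes were not tested, save that parting at 8 moves cells 20 and 31. The other alternatives left the count between 33 and 52 and the median correlation between members from 0.139 to 0.241 at 7 or more and from 0.157 to 0.200 under 7. No paired analysis was possible because the labels give 1 group and neither animals nor replicate numbers. The limits are 1 sample, unknown depth, unknown annotation and reads shared among copies.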
